A study of Mus musculus with 24 samples.

Results

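CD45+ cells taken from EMT6-hHER2 tumors of mice given the antibody-drug conjugate T-PNU were compared by RNA sequencing with those of mice given trastuzumab without a payload. The comparison used 12 of the 24 samples of the series, 6 per group with 1 library per mouse, chosen by the treatment in their labels, and covered all 16996 genes with values. EMT6-hHER2 is a murine breast cancer line that carries human HER2, here a single-cell-sorted clone, grown in the mammary fat pad of immunocompetent, wild-type female Balb/c mice aged 10 to 12 weeks. T-PNU (1 mg/kg) is trastuzumab joined to a PNU-159682 derivative, an anthracycline, through a linker of peptide that is not made to be cleaved. The control group received trastuzumab at 20 mg/kg. Both were given once, intravenously, at a tumor volume of 80 mm3, and the labels place the harvest at day 10. An untreated group and a group given T-DM1 (15 mg/kg), trastuzumab carrying a microtubule inhibitor, with 6 mice each, entered the fit to share its estimate of the spread.

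Antibody dose differed together with the payload, so the effects of these cannot be told apart. The column headings hold numbers that run in blocks by treatment, and what they number is not stated. Any effect of that order cannot be told apart from treatment either. The methods also time the harvest by the size of the T-PNU tumors, and tumor sizes of the mice sequenced were not analysed here.

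Anthracyclines damage DNA and block topoisomerase II, and tumor cells dying from them can release signals that alert the immune system. Type I interferon is one such signal, acting through STAT2 and IRF9 on genes such as Mx1 and Isg15. Trastuzumab binds HER2, and its Fc part is read by Fc gamma receptors on macrophages and NK cells. CD45, the product of Ptprc, is carried by nearly all leukocytes, so a CD45 enrichment mixes T cells, B cells, NK cells, macrophages, neutrophils and dendritic cells. In such a mixture, fewer cells of a type and less RNA per cell cannot be told apart.

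The trastuzumab samples E2 and B3 stood apart from the other 4 of their group, and the heatmaps of the study do not show them. On the first principal component of the 1000 most variable genes, which held 71.86% of the variance, E2 lay at 32.35 and B3 at 19.73, against -26.63 to -11.76 for F2, G2, H2 and A3. The T-PNU samples spanned both ends, with G1 at -17.16, A2 at -6.82, D2 at 16.12, B2 at 21.76, H1 at 26.92 and C2 at 46.25. The methods state that similarity of expression was used to find outliers. If E2 and B3 were left out for that reason, p-values without them are not independent of the choice. Most results are therefore given both for all 6 trastuzumab samples and for 4, and some single genes for 6 against 4 mice only. With 4, the spread comes from the 20 samples of the heatmaps and untreated B1 and C1 are left out too.

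With 6 against 6 mice, a single gene passed an adjusted p under 0.05 in limma. This was 1 gene higher in T-PNU (0.00588% of those tested) and 0 lower (0%), while 3308 genes had an unadjusted p under 0.05, of which 1331 were higher (7.83%) and 1977 lower (11.6%). With 6 against 4 mice, the same test called 2476 genes higher (14.6%) and 2289 lower (13.5%). These counts rest on the spread borrowed from the other groups and on single mice: a fit of the 10 T-PNU and trastuzumab samples alone called 51 higher and 53 lower, adding untreated B1 and C1 to the fit gave 536 and 923, and leaving out trastuzumab sample G2 gave 442 and 570. Of the 56 genes singled out by the naming rule and called in this fit, 43 lost the call when the 10 samples were fitted alone and 22 without G2, among them Mx1 (0.68, adjusted p = 0.0592), Fcgr1 (0.43, adjusted p = 0.0629), Gzmc (0.70, adjusted p = 0.0556), Ctla4, Tigit, Stat4, Il18r1, Cxcr3, Il10 and Nlrc5. The same 22 genes were all that lost the call without any 1 mouse. The stricter thresholds of the study, an adjusted p under 0.01 and a fold above 2, called 24 genes higher (0.141%) and 85 lower (0.5%) in the 6 against 4 fit, and 0 in either direction in the 6 against 6 fit. Of the genes called in the 6 against 4 fit, 2474 of the 2476 higher ones and all 2289 lower ones had a difference of the same sign when E2 and B3 were kept, with the median difference going from 0.49 to 0.33 and from -0.46 to -0.33 on the log2 scale. Both fits share 10 of the 12 samples compared. Differences here and below are T-PNU minus trastuzumab on the log2 scale of the deposited values, with 95% confidence intervals (CI) from limma, and adjusted p-values are Benjamini-Hochberg values over all genes. Over all genes the median difference was 0.010 with 6 trastuzumab samples and 0.021 with 4.

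The lists differed in how far they depended on E2 and B3, as the plot of list medians shows. Lymphocyte genes had large differences that shrank when E2 and B3 were kept, the median of 14 B cell and naive lymphocyte genes going from 1.99 to 0.91 and that of 15 T cell receptor genes from 1.22 to 0.68. Type I interferon-stimulated genes moved little with this choice, at 0.44 and 0.45. Sterol synthesis genes (-0.77 and -0.58) and fibroblast and matrix genes (-1.03 and -0.83) lay below 0 in both.

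**Figure D1:**
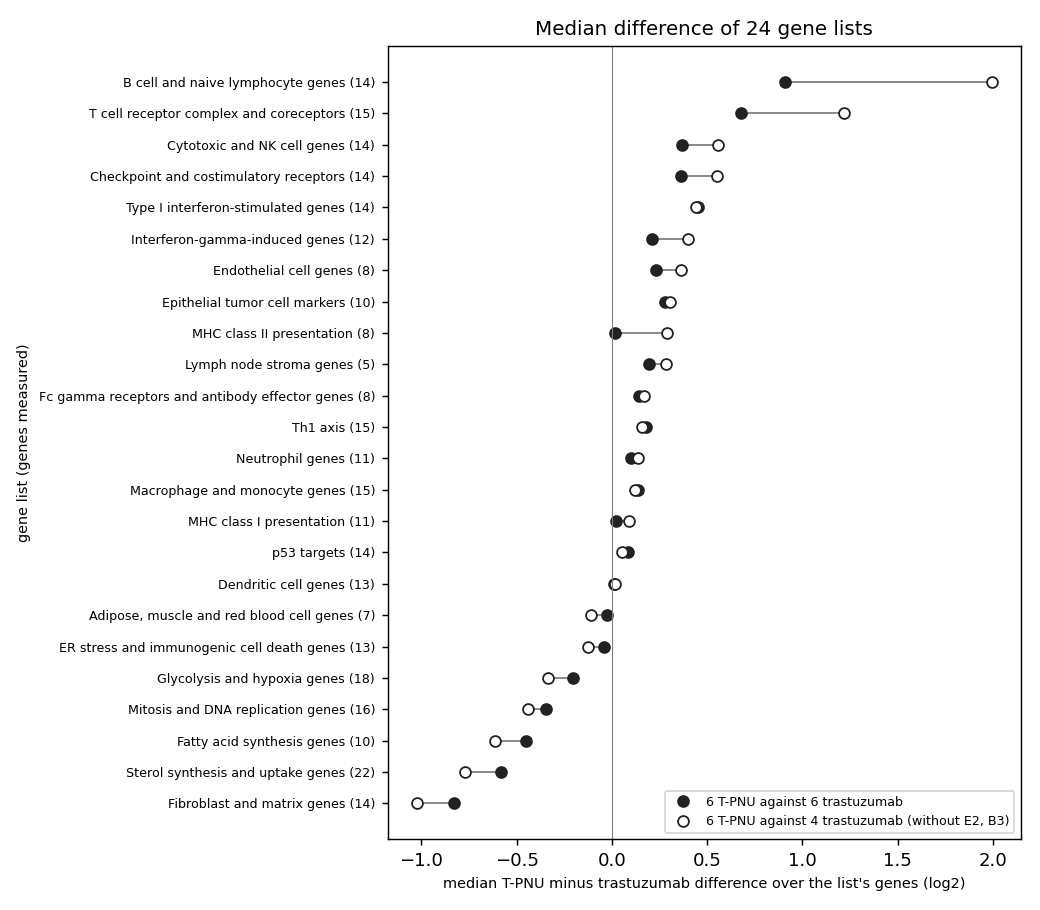
Median T-PNU minus trastuzumab difference (log2, x axis) over the genes of each of 24 lists (y axis, with the number of genes measured), from 6 against 6 mice (filled circles) and from 6 against 4 mice without trastuzumab E2 and B3 (open circles). The gap between both circles is widest for B cell and naive lymphocyte genes (0.91 and 1.99) and small for type I interferon-stimulated genes (0.45 and 0.44).

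Type I interferon-stimulated genes encode antiviral effectors and the factors that induce them. All 14 had higher means in T-PNU in both fits. None passed the adjusted threshold with 6 against 6 mice in limma, and 8 of 14 had an unadjusted p under 0.05 on the higher side, against 7.83% of all genes. In 6 of the 14, Mx1, Oas2, Rsad2, Irf7, Cmpk2 and Stat2, every T-PNU value lay above every trastuzumab value, E2 and B3 included, against 0.894% of all genes in that direction. Without E2 and B3, 6 of the 14 passed (Ifit3, Mx1, Oas2, Irf7, Cmpk2 and Stat2), against 14.6% of all genes, but 1 when the 10 samples were fitted alone and 0 without G2.

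Mx1, an interferon-induced antiviral GTPase (chr16:97447035-97462907, minus strand, mm10), read 12.08, 11.90, 11.75, 11.69, 12.12 and 12.32 in T-PNU samples G1, H1, A2, B2, C2 and D2. In trastuzumab samples E2, F2, G2, H2, A3 and B3 it read 10.95, 11.06, 10.96, 11.41, 11.41 and 11.57. The lowest T-PNU value, in B2, lay above the highest trastuzumab value, in B3. The difference was 0.75 (CI 0.21 to 1.28, adjusted p = 0.174) with 6 trastuzumab samples and 0.76 (CI 0.35 to 1.17, adjusted p = 0.0146) with 4. Irf7, the transcription factor that amplifies interferon production, ran from 14.34 to 14.98 in T-PNU and from 13.68 to 14.26 in trastuzumab, with a difference of 0.55 (CI 0.12 to 0.98, adjusted p = 0.183). Stat2, a subunit of the interferon-activated factor ISGF3, ran from 13.19 to 13.52 and from 12.42 to 13.16, with a difference of 0.42 (CI 0.11 to 0.73, adjusted p = 0.175). Isg15, a ubiquitin-like modifier, overlapped between the groups, with a difference of 0.36 (CI -0.04 to 0.75).

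The interferon genes were not higher in T-PNU than in every other mouse of the series. Their list level, the average over genes after each gene was centred on its mean in the 24 mice, ran from 0.15 to 0.57 in T-PNU and from -0.43 to 0.13 in trastuzumab. In T-DM1 it ran from -0.26 to 0.42 and in untreated mice from -0.93 to 0.78. The highest of these values therefore belonged to an untreated mouse, C1.

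The promoters of some of these genes carry a match to the sequence that ISGF3 and related factors read. A core of this element, GAAANNGAAA on either strand, was searched in the RefSeq promoter windows (GRCm38.p6, the same build as mm10) from 250 bases before to 50 bases after each start. It occurred in 6 of the 11 interferon-stimulated genes that had a window, and in 1079 of all 27025 genes with one (3.99%), or 3.44% of all 32851 windows. The stretches around it are shown 5′ to 3′ on the strand of the gene for Stat2 and Rsad2, whose T-PNU and trastuzumab values did not overlap, and for Ifit3, called with 6 against 4 mice, with the core in capitals. A match is a description of the letters and not evidence of binding.
Stat2 (chr10:128270251-128270310, plus strand): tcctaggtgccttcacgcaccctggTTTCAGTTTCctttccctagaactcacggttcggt
Rsad2 (chr12:26456538-26456597, minus strand): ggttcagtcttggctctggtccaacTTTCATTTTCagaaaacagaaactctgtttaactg
Ifit3 (chr19:34583348-34583407, plus strand): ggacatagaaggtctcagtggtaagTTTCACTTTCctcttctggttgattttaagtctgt
In these 3 windows the core lies on the strand opposite to the gene, beginning 222, 120 and 156 bases before the start in the order shown.

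Genes that interferon-gamma induces overlap with this program. Of 12, 0 passed with 6 trastuzumab samples in limma, and 0 had an unadjusted p under 0.05. With 4 samples 5 passed, all higher in T-PNU (among them Irf1, Igtp, Irgm2 and Ifi47), against 14.6% of all genes called higher. The call of Igtp (0.67, adjusted p = 0.0311 in limma) was lost without any of 6 mice. It differed by 0.41 (adjusted p = 0.145) without G2, and its adjusted p was 0.0786 when the 10 samples were fitted alone. The count of this list was not taken under those settings. The list median was 0.40 with 4 samples and 0.21 when all 6 were used. Cxcl9, a T cell attracting chemokine induced by interferon-gamma, had a difference of -0.48 (CI -1.01 to 0.04), with T-PNU values from 12.47 to 13.37 and trastuzumab values from 12.25 to 13.94. Ifng itself ran from 6.27 to 7.36 in T-PNU and from 5.86 to 7.70 in trastuzumab. Its difference was 0.003 (CI -0.76 to 0.77) with 6 trastuzumab samples and 0.19 (CI -0.36 to 0.73, adjusted p = 0.595) with 4, so the groups could not be told apart at this spread.

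Among myeloid genes, the monocyte antigens Ly6c1 and Ly6c2 separated the groups in all mice. Ly6c2, the Ly6C antigen of inflammatory monocytes (chr15:75108158-75111970, minus strand), read 13.17, 12.91, 12.92, 12.88, 13.24 and 13.50 in the 6 T-PNU samples in the order used for Mx1, and 12.29, 11.90, 12.15, 12.37, 12.60 and 12.42 in trastuzumab. No T-PNU value reached down to the highest trastuzumab value, in A3. The difference was 0.82, or 1.76-fold (CI 0.40 to 1.24, adjusted p = 0.125), with 6 trastuzumab samples and 0.85 (CI 0.47 to 1.23, adjusted p = 0.00726) with 4. Ly6c1 differed by 0.76 (CI 0.37 to 1.15, adjusted p = 0.125). These genes are near-identical copies, and reads may have been split between them. The T-DM1 samples averaged 13.12 ± 0.39 (SD, n = 6) for Ly6c2, beside 13.10 ± 0.25 in T-PNU, 12.29 ± 0.24 in trastuzumab and 12.07 ± 0.53 in untreated mice.

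Fcgr1, the high-affinity Fc receptor for IgG on monocytes and macrophages (chr3:96282909-96293969, minus strand), was the only one of 8 Fc gamma receptor and antibody effector genes to pass with 6 against 4 mice, against 14.6% of all genes called higher. It read 14.15, 13.97, 14.11, 13.96, 14.02 and 14.23 in T-PNU and 13.45, 13.47, 13.53, 13.58, 13.86 and 13.65 in trastuzumab. The groups did not overlap, and the difference was 0.48 (CI 0.06 to 0.91, adjusted p = 0.217), or 0.46 (CI 0.20 to 0.73, adjusted p = 0.0179) with 4 trastuzumab samples. The list median was 0.14, and Fcgr2b, the inhibitory receptor, differed by -0.02. The other macrophage and monocyte genes were mixed. Of 15, 2 were called higher (Ly6c2 and Apoe) with 6 against 4 mice and 1 lower (Spp1, osteopontin, -0.63), against 14.6% and 13.5% of all genes. No gene of the complement component C1q passed. None of 11 neutrophil genes passed in either limma fit, and none had an unadjusted p under 0.05 with 6 trastuzumab samples. Dendritic cell genes had a median of 0.01 in both fits. With 6 against 4 mice 1 of 13 was called higher (Wdfy4, 0.56) and 1 lower (Fscn1, fascin of mature dendritic cells, -0.92), against 14.6% and 13.5% of all genes. In all mice they differed by 0.26 and -0.75, at adjusted p-values of 0.388 and 0.156.

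**Figure D2:**
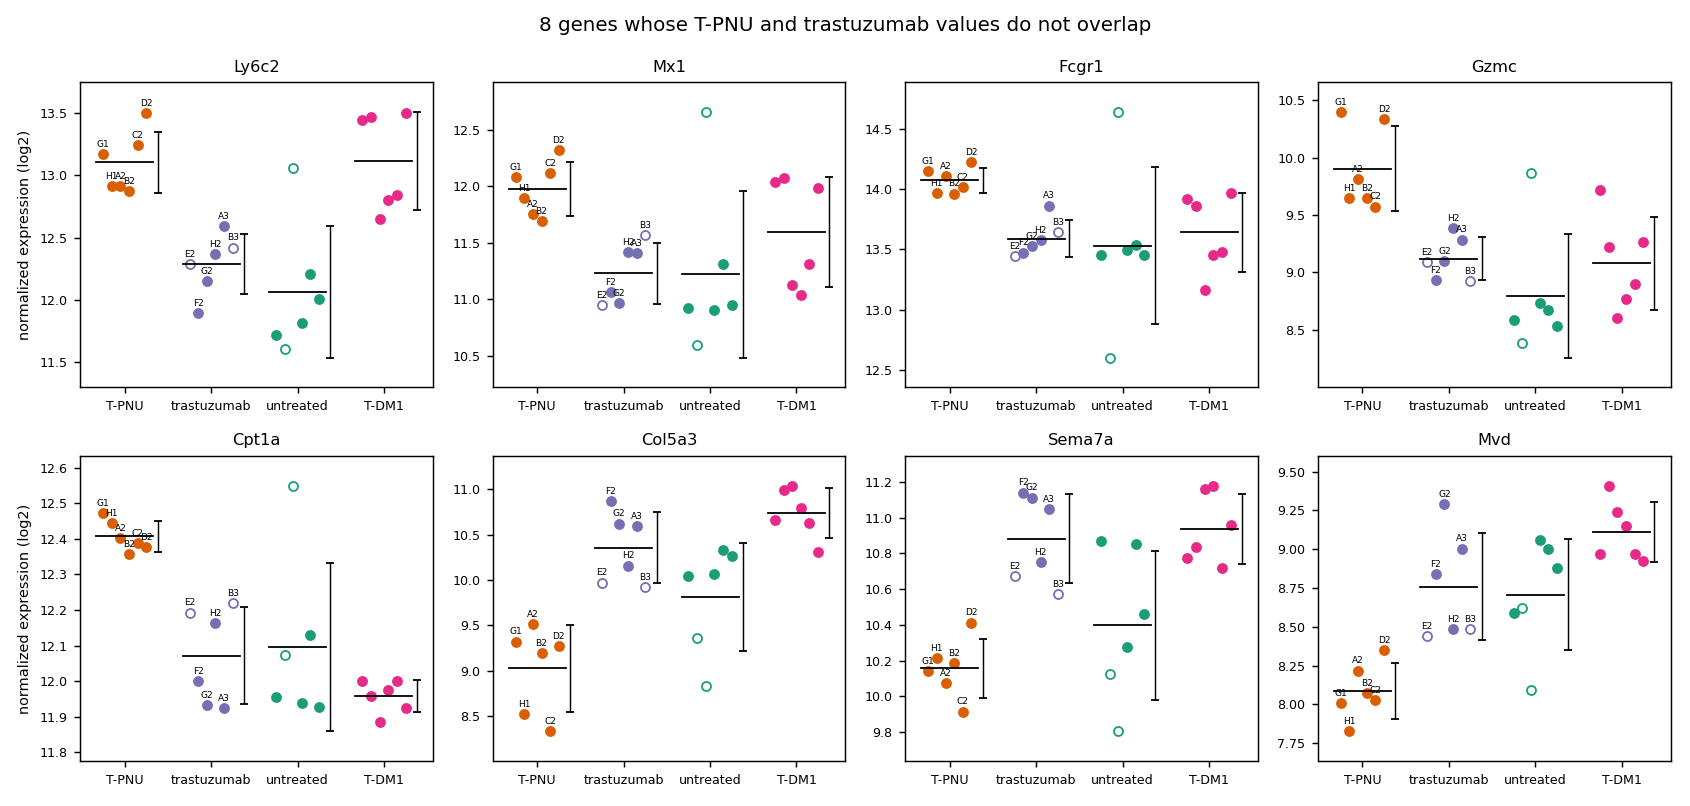
Normalized expression (log2, y axes with separate ranges) of 8 genes in each mouse of the 4 groups (x axes), with the T-PNU and trastuzumab mice named. Horizontal lines are means, bars are 1 SD (n = 6) and open circles are samples that the heatmaps of the study do not show (trastuzumab E2 and B3, untreated B1 and C1). T-PNU and trastuzumab values do not overlap in any panel, while the T-DM1 mean of Ly6c2 (13.12) is close to that of T-PNU (13.10).

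T cell genes had higher means in T-PNU, and whether they passed depended on E2 and B3. None of 15 T cell receptor and coreceptor genes had an unadjusted p under 0.05 with 6 against 6 mice in limma, although all 15 means were higher in T-PNU. Without E2 and B3, 11 of 15 were called higher, against 14.6% of all genes, but 0 of 15 were in limma when the 10 samples were fitted alone, when untreated B1 and C1 were kept, or without G2. Cd4, the coreceptor of helper T cells, read 9.27, 11.06, 9.97, 11.59, 12.48 and 10.95 in T-PNU and 11.51, 9.003, 8.87, 9.65, 9.66 and 11.14 in trastuzumab. E2 and B3 thus lay among the higher T-PNU samples and G1 among the lower trastuzumab samples. The difference was 0.91 (CI -0.35 to 2.18, adjusted p = 0.382) with 6 trastuzumab samples and 1.59 (CI 0.49 to 2.69, adjusted p = 0.0339) with 4. Cd8a, the coreceptor of cytotoxic T cells, differed by 0.44 (CI -0.32 to 1.19) and by 0.72 (CI 0.11 to 1.33, adjusted p = 0.0696), so it passed in neither fit.

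The mice lay in a similar order for the whole T cell list, with levels in T-PNU from -0.50 in G1 and -0.27 in A2 up to 1.94 in C2, and with H1 (0.83), D2 (0.90) and B2 (1.09) between them. G1 and A2 are the T-PNU samples that the study marks as low-responding. In trastuzumab the levels were 1.27 in E2 and 0.79 in B3, and -1.36 to -0.19 in the other 4. B cell and naive lymphocyte genes set E2 and B3 apart in the same way, at 1.99 in E2, 1.61 in B3 and -1.76 to -0.42 in the rest. In T-PNU that list ran from -1.69 in G1 and -0.13 in A2 to 2.09 in C2. Ms4a1, the B cell antigen CD20, spanned 6.61 to 11.49 in T-PNU and 6.84 to 11.16 in trastuzumab, and its difference of 2.11 with 4 trastuzumab samples (adjusted p = 0.0655) was 0.95 (CI -0.94 to 2.84) with 6. Of the 14 genes of this list 7 were called higher with 6 against 4 mice, against 14.6% of all genes. None was called with 6 against 6 in limma, where none had an unadjusted p under 0.05. The 6 against 4 count was 0 when the 10 samples were fitted alone and without T-PNU sample H1. The part of B cells or lymph node tissue in the T cell differences was not tested.

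Among killing genes, Gzmc separated the groups in all mice. Gzmc, granzyme C of activated cytotoxic lymphocytes (chr14:56231441-56234656, minus strand), read 10.40, 9.65, 9.81, 9.65, 9.57 and 10.34 in T-PNU and 9.09, 8.94, 9.10, 9.39, 9.29 and 8.93 in trastuzumab. Its highest values were in G1 and D2, and the difference was 0.78 (CI 0.33 to 1.23, adjusted p = 0.139) with 6 trastuzumab samples and 0.72 (CI 0.32 to 1.13, adjusted p = 0.0161) with 4. Gzmb, granzyme B, overlapped between the groups and differed by 0.49 (CI -0.12 to 1.099) and 0.59 (CI 0.12 to 1.06, adjusted p = 0.0562). Of the 14 cytotoxic and NK cell genes 4 passed with 6 against 4 mice, Gzma, Gzmc, Fasl and Eomes, all higher in T-PNU, against 14.6% of all genes. With 6 against 6 mice 0 of 14 passed in limma, and 2 had an unadjusted p under 0.05 on the higher side, against 7.83% of all genes. Fasl and Eomes then differed by 0.58 and 0.38, at adjusted p-values of 0.296 and 0.326. For Eomes E2 (8.86) lay above the highest T-PNU value (8.83).

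Checkpoint and costimulatory receptors followed the T cell genes. In the 6 against 4 fit 7 of the 14 genes of this list were called higher, against 14.6% of all genes. These were Ctla4, Tigit, Icos, Tnfrsf4, Tnfrsf18, Cd27 and Foxp3, several of them known from regulatory T cells. Foxp3, which the list also holds, encodes a transcription factor and not a receptor. The call of Cd27 was lost without any of 6 mice. Pdcd1, encoding PD-1 (0.47, adjusted p = 0.118), and Lag3 (0.33) did not pass. With 6 against 6 mice 0 of 14 had an unadjusted p under 0.05 in limma. Ctla4, an inhibitory receptor, ran from 9.54 to 11.21 in T-PNU and from 8.77 to 10.58 in trastuzumab, with a difference of 0.73 (CI -0.09 to 1.54, adjusted p = 0.298) in all mice. Of 15 genes of the Th1 axis 4 were called higher with 6 against 4 mice, Tbx21 (0.77), Stat4 (1.13), Il18r1 (0.78) and Cxcr3 (0.70), against 14.6% of all genes. In all mice Stat4, Il18r1 and Cxcr3 differed by 0.62, 0.57 and 0.34, at adjusted p-values of 0.396, 0.255 and 0.464. The call was lost without any of 4 mice for Stat4, 6 for Il18r1 and 7 for Cxcr3, and for each when the 10 samples were fitted alone. Il12rb2 (0.59, adjusted p = 0.0689) and Il12a (0.15) did not pass. Il10 was called lower with 6 against 4 mice, by -0.71 (adjusted p = 0.0441, lost without any of 7 mice), and differed by -0.49 (CI -1.07 to 0.10) in all mice, while Il6 passed in neither fit (-0.35 and -0.22).

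Of the antigen presentation genes, those of MHC class I had a median of 0.02 with 6 trastuzumab samples and 0.09 with 4. With 4, 1 of 11 passed (Nlrc5, the regulator of class I transcription, 0.43), against 14.6% of all genes called higher. Nlrc5 differed by 0.25 (adjusted p = 0.378) in all mice. The 8 class II genes had a median of 0.02 with 6 trastuzumab samples and of 0.29 with 4, where all 8 means were higher in T-PNU. Of these 1 passed, H2-Oa (1.32), against 14.6% of all genes called higher. Its partner H2-Ob (1.78, adjusted p = 0.0503) did not, both encoding the H2-O molecule made mainly in B cells.

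**Figure D3:**
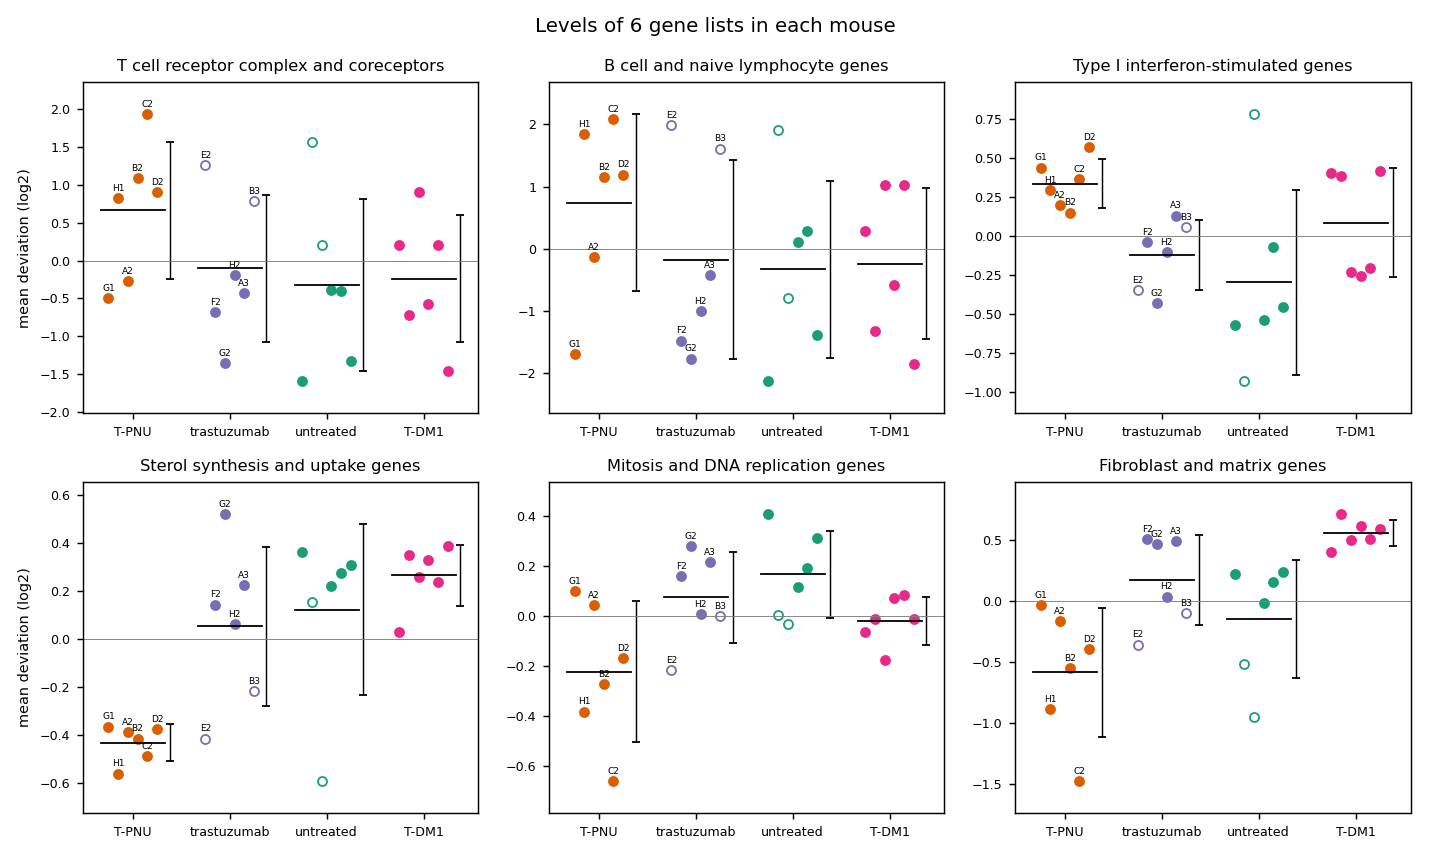
Levels of 6 gene lists (y axes, log2 deviation from the mean over the 24 mice, averaged over the genes of the list) in each mouse of the 4 groups (x axes). Lines, bars (1 SD, n = 6) and open circles are as in the plot of single genes. Trastuzumab E2 and B3 lie with the higher T-PNU samples for T cell and B cell genes (E2 at 1.27 and 1.99), and below the other trastuzumab samples for sterol genes (-0.42 and -0.22), whereas interferon-stimulated genes run from 0.15 to 0.57 in T-PNU and up to 0.13 in trastuzumab.

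Genes of cholesterol synthesis and uptake were lower in T-PNU as a group. These genes are switched on together by the transcription factor SREBP2, product of Srebf2, when cells are short of sterol. The list was drawn up because such genes stood among the largest falls in an earlier analysis of these data, so its count is not independent evidence of its direction. Without E2 and B3, 19 of 22 were called lower and none higher, against 13.5% of all genes called lower (14 of 22 when the 10 samples were fitted alone and 15 without G2), and the values of 16 did not overlap, against 5.48% of all genes in that direction and 5.17% in the other. Mvk, Acat2 and Ebp did not pass. With 6 against 6 mice none passed the adjusted threshold in limma, 18 of 22 had an unadjusted p under 0.05 on the lower side, against 11.6% of all genes, and 20 of 22 means were lower. Values did not overlap in any mouse for Mvd and Srebf2, against 0.412% of all genes.

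Mvd, mevalonate diphosphate decarboxylase (chr8:122433601-122443422, minus strand), read 8.01, 7.83, 8.22, 8.08, 8.03 and 8.35 in T-PNU and 8.44, 8.84, 9.29, 8.49, 9.004 and 8.49 in trastuzumab. D2 came closest to the trastuzumab samples, and E2 was the lowest of those. The difference was -0.67 (CI -0.998 to -0.35, adjusted p = 0.125) with 6 trastuzumab samples and -0.82 (CI -1.11 to -0.53, adjusted p = 0.00407) with 4. Srebf2 ran from 11.82 to 12.24 in T-PNU and from 12.36 to 13.03 in trastuzumab, a difference of -0.54 (CI -0.83 to -0.24, adjusted p = 0.132). Cyp51, lanosterol demethylase, varied little among T-PNU samples, from 11.38 to 11.51, and read 11.30 in E2, 11.75 in B3 and 12.29 to 12.84 in the other trastuzumab samples. E2 was thus below all T-PNU samples for this gene, and the difference was -0.71 (adjusted p = 0.169) in all mice and -1.03 (adjusted p = 4e-04) without E2 and B3. Sqle, squalene epoxidase, differed by -0.92 (CI -1.51 to -0.33, adjusted p = 0.156) with 6 trastuzumab samples and by -1.27 (adjusted p = 0.00303) with 4.

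**Figure D4:**
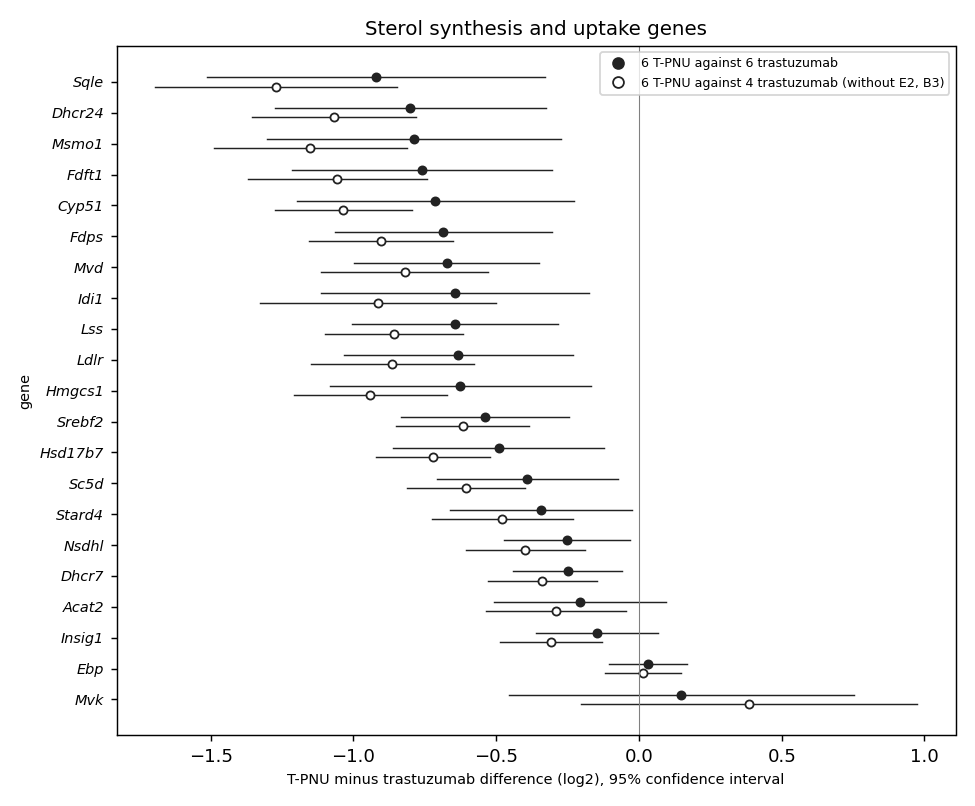
T-PNU minus trastuzumab difference (log2, x axis) with 95% confidence intervals from limma for the sterol synthesis and uptake genes reported here (y axis), from 6 against 6 mice (filled) and 6 against 4 mice without trastuzumab E2 and B3 (open). The differences from all mice lie below 0 except those of Mvk (0.15) and Ebp (0.03).

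The sterol list level was -0.56 to -0.37 in T-PNU. It was -0.42 in E2, -0.22 in B3 and 0.06 to 0.52 in the other trastuzumab samples, 0.03 to 0.39 in T-DM1 and -0.59 to 0.36 in untreated mice, where C1 was the lowest. Fatty acid synthesis genes went the same way, with 6 of 10 called lower with 6 against 4 mice (Scd2, Acaca, Elovl6, Fads1, Fads2 and Me1), against 13.5% of all genes. Fads2, a fatty acid desaturase, differed by -1.04 (adjusted p = 0.125) in all mice and by -1.34 (adjusted p = 0.00192) with 4. Fasn (-0.38), Scd1, Acly and Srebf1 did not pass. Cpt1a, which brings fatty acids into mitochondria for oxidation (chr19:3322334-3385733, plus strand), was on the other side. It read 12.47, 12.44, 12.40, 12.36, 12.39 and 12.38 in T-PNU and 12.19, 12.00, 11.93, 12.16, 11.92 and 12.22 in trastuzumab. The groups did not overlap, B3 and E2 were the trastuzumab samples nearest to T-PNU, and the difference was 0.33 (CI 0.16 to 0.51, adjusted p = 0.125), or 0.40 (CI 0.28 to 0.52, adjusted p = 0.00127) with 4 trastuzumab samples. The T-DM1 mean was 11.96 ± 0.05 (SD, n = 6) and the untreated mean 12.10 ± 0.24.

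Mitosis and DNA replication genes were lower on average in T-PNU. In the 6 against 4 fit 11 of 16 were called lower, against 13.5% of all genes (0 when the 10 samples were fitted alone and 1 without G2). Among them were Top2a (-0.47), the topoisomerase that anthracyclines bind, and Cdk1 (-0.59), while Mki67, the proliferation marker Ki-67, did not pass (-0.38, adjusted p = 0.0574). With 6 against 6 mice none passed in limma and 13 of 16 had an unadjusted p under 0.05 on the lower side, against 11.6% of all genes, and Pcna on the higher side (0.21). The list level ran from -0.66 to 0.10 in T-PNU and from -0.22 to 0.28 in trastuzumab. Of 18 glycolysis and hypoxia genes 11 were called lower and none higher with 6 against 4 mice, against 13.5% of all genes called lower, with Vegfa at -0.48 (adjusted p = 0.00865). With 6 against 6 mice 4 of 18 had an unadjusted p under 0.05 on the lower side, against 11.6%.

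Of 14 p53 targets, 2 were called higher with 6 against 4 mice, a share near the 14.6% of all genes, and 4 had an unadjusted p under 0.05 on the higher side with 6 against 6, against 7.83%. Those called were Trp53inp1 (1.15, adjusted p = 0.00407) and Pmaip1 (0.59, adjusted p = 0.0177), which encodes the apoptosis inducer NOXA. Trp53inp1 differed by 0.81 (adjusted p = 0.174) in all mice, with E2 (11.46) inside the T-PNU range of 10.98 to 11.95. Cdkn1a, the cell cycle inhibitor p21, differed by 0.06 (CI -0.15 to 0.26) and the list median was 0.05 with 4 trastuzumab samples. Of 13 genes of ER stress and immunogenic cell death, 2 were called higher with 6 against 4 mice, the stress factors Ddit3 (0.50) and Atf3 (0.36), and 3 lower, Hsp90b1 (-0.26), Pdia4 (-0.39) and Xbp1 (-0.23), against 14.6% and 13.5% of all genes. In all mice Ddit3 and Pdia4 differed by 0.40 and -0.27, at adjusted p-values of 0.148 and 0.216. Calr, encoding calreticulin, and Hmgb1, which dying cells expose or release as proteins, differed by -0.09 and -0.16 and passed in neither fit.

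Fibroblast and matrix genes had the lowest median of the 24 lists, although the cells had been enriched for CD45. The rank and counts of this list are not independent evidence of its direction, because the lists were chosen with earlier results of these data known. In the 6 against 4 fit 11 of 14 were called lower, against 13.5% of all genes (1 when the 10 samples were fitted alone and 7 without G2). With 6 against 6 mice 12 of 14 had an unadjusted p under 0.05 on the lower side, against 11.6% of all genes, while none passed in limma. Col1a1, type I collagen, ran from 11.49 to 12.93 in T-PNU and from 12.85 to 13.95 in trastuzumab, and differed by -1.002 (CI -1.61 to -0.40, adjusted p = 0.148) and by -1.19 with 4 trastuzumab samples (adjusted p = 0.00979). Col5a3, a collagen V chain (chr9:20770050-20815067, minus strand), read 9.32, 8.52, 9.51, 9.20, 8.33 and 9.27 in T-PNU and 9.97, 10.87, 10.62, 10.16, 10.60 and 9.92 in trastuzumab. The groups did not overlap, with H1 and C2 the lowest, and the difference was -1.33 (CI -1.84 to -0.82, adjusted p = 0.125), or -1.54 (CI -1.96 to -1.11, adjusted p = 0.00102) with 4. The list level ran from -1.48 to -0.03 in T-PNU, from -0.36 to 0.51 in trastuzumab, from 0.40 to 0.71 in T-DM1 and from -0.95 to 0.24 in untreated mice.

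Markers of tumor epithelium did not follow one direction. Of 10, 4 were called higher in the 6 against 4 fit, Epcam (1.22), Krt14 (0.81), Krt19 (0.71) and Erbb3 (0.83), against 14.6% of all genes. Another 3 were called lower, Krt8 (-0.70), Erbb2 (-0.91) and Wnt7b (-1.64), against 13.5%. Erbb2 is the mouse gene, and reads were mapped to the mouse genome. Whether reads of the human HER2 that the line carries entered its value was not tested. Epcam differed by 0.81 (adjusted p = 0.175) in all mice, with E2 (8.16) and B3 (7.86) inside the T-PNU range, and Wnt7b by -1.25 (adjusted p = 0.142). The calls of Epcam and Wnt7b were lost when the 10 samples were fitted alone. Krt8, a keratin of simple epithelium, stayed at 11.69 to 13.11 in T-PNU and 12.48 to 13.28 in trastuzumab, so this epithelial transcript was present in all 12 samples. Of 8 endothelial genes 3 were called higher in that fit (Pecam1, Kdr and Tek), against 14.6% of all genes. Ptprc, the gene of CD45, differed by 0.44 (CI 0.06 to 0.83, adjusted p = 0.213) and by 0.62 (CI 0.31 to 0.93, adjusted p = 0.0115) with 4 trastuzumab samples. The part of cells other than leukocytes in the differences of the other lists was not tested. Of 5 lymph node stroma genes with values, Glycam1 (2.70) and Prox1 (0.29) were called higher and Cxcl13 (-0.97) lower with 6 against 4 mice, against 14.6% and 13.5% of all genes. Glycam1 differed by 1.42 (CI -0.32 to 3.16, adjusted p = 0.331) in all mice, with 8.38 in E2 and 8.25 in B3. Its call was lost without F2, without G2 and when the 10 samples were fitted alone. Of 7 adipose, muscle and red blood cell genes 1 was called higher in that fit (Tnnt3, 0.46), against 14.6% of all genes. Tnnt3 differed by 0.34 (adjusted p = 0.30) in all mice.

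Ces2e, a carboxylesterase gene (chr8:104926260-104934672, plus strand), was the single gene past the adjusted threshold with 6 against 6 mice, and it is named here because its value was seen. It read 4.07, 2.99, 3.51, 3.08, 3.18 and 2.99 in T-PNU and 2.43, 2.42, 2.39, 2.52, 2.60 and 2.63 in trastuzumab. The groups did not overlap, but the level was low, at percentile 5.52 of all genes, and G1 was well above the other T-PNU samples. The difference was 0.80, or 1.74-fold (CI 0.54 to 1.06, adjusted p = 0.0275). The adjusted p was 0.109 with the 12 samples alone, 0.126 after quantile normalization, and between 0.00089 (without T-PNU sample G1) and 0.116 (without trastuzumab sample F2) with 1 mouse left out, and the call was lost without any of 6 mice (C2, E2, F2, G2, H2 or A3). Members of its gene family are similar in sequence, so that its reads may be uncertain.

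Sema7a, a membrane semaphorin that binds integrins on monocytes (chr9:57940112-57962865, plus strand), was among the 8 genes with the smallest p on the lower side. It read 10.14, 10.22, 10.07, 10.19, 9.91 and 10.41 in T-PNU and 10.67, 11.14, 11.11, 10.75, 11.05 and 10.57 in trastuzumab. B3 and E2 were the trastuzumab samples closest to T-PNU. The difference was -0.72 (CI -1.04 to -0.41, adjusted p = 0.125) with 6 trastuzumab samples and -0.86 (CI -1.12 to -0.59, adjusted p = 0.0019) with 4. Other genes of that set were Fkbp4, a cochaperone of HSP90 (-0.44), and Shmt2, the mitochondrial serine hydroxymethyltransferase (-0.52). On the higher side stood Slc2a9, a urate transporter (0.38), and Ctns, the lysosomal cystine exporter (0.35), all at an adjusted p of 0.125.

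Some strictly called genes of the 6 against 4 fit, expressed above the median level and without overlap in that fit, stood outside the lists. On the higher side were Rgs2 (1.102), a regulator of G protein signaling, Cxcr4 (1.07), a chemokine receptor of leukocytes, and Tsc22d3 (1.01), the glucocorticoid-induced leucine zipper. In all mice they differed by 0.86, 0.75 and 0.70, at adjusted p-values of 0.156, 0.179 and 0.2. On the lower side were Mgp (-1.39), the matrix Gla protein, and Il11 (-1.37), a cytokine of stromal cells, with -0.91 and -1.07 in all mice. Cxcr4 read 13.80 in E2 and 13.76 in B3, within the T-PNU range of 13.16 to 14.57, and 12.75 to 12.98 in the other trastuzumab samples.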

How the data were processed

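The labels and the methods of the study describe stranded mRNA libraries sequenced as single reads. According to the submitters' processing notes, the authors used STAR 2.4.2a, featureCounts of Subread 1.5.0, Picard and DESeq2 on build mm10. They removed genes with an average under 5 counts. The deposited values are log2 normalized expression. The transformation is not given in the sources used here, and the values behave as if shrunken gene by gene, so differences can be smaller than from counts. Depth is unknown, so counting error has no interval here. Of the identifiers 99.61% matched GENCODE M21 (GRCm38), which gave positions.

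Groups came from sample titles. No pseudocount or further filter was applied. Four-group linear models (lmFit, contrasts.fit, eBayes with trend, no covariate) were run in R 4.3.3 with limma 3.58.1, over all 24 samples (20 residual degrees of freedom) or the 20 of the heatmaps (16). Benjamini-Hochberg adjustment ran over all genes. The script was tested on simulated data. The members and the 24 gene lists were chosen with earlier results of these data known. Named were the 8 genes with the smallest p in each direction, the 6 most extreme non-overlapping strict genes in each direction, the extremes of each list, genes the study names, and Ptprc. Some genes that this rule covers, or that the lists count, are not reported here by name. Where other list members are given, they stand for their list. Nothing says that mice came from separate experiments or cages. Alternatives were fits of the compared groups only, 22 samples, quantile normalization, genes above the median level, sample weights and each replicate left out. Counts for 6 lists under these were added after seeing the data. Of the list genes 6 had no values (Ccl19, Ccl21a, Madcam1, Plin1, Cidec and Myh4). Plots came from matplotlib 3.10.9 under Python 3.11.15.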

Additional observations from a re-analysis of the deposited data

Results flagged for a closer look

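In 10 of the 218 groups of 6 samples examined, 1 sample lay far from the other 5 of its group by Dixon's criterion, which chance alone meets in about 1 in 20 groups. T-PNU sample H1 read 11.86 for Fkbp4, where the others ran from 12.15 to 12.30. T-PNU sample A2 read 13.21 for Igtp, with 13.78 to 14.01 in the others, and 6.94 for Lyve1, with 5.43 to 5.79 in the others. The neutrophil list level was 0.678 in T-PNU sample H1, with -0.02 to 0.05 in the others, and 0.435 in trastuzumab sample H2, with -0.02 to 0.15 in the others. The list level of ER stress and immunogenic cell death genes was -0.178 in T-PNU sample C2, against -0.06 to -0.01. Trastuzumab sample G2 read 12.25 for Cxcl9, where the others ran from 13.34 to 13.94, and 14.89 for Gbp2, with 15.50 to 15.71 in the others. Its interferon-gamma list level was -0.749, with 0.00 to 0.43 in the others. Trastuzumab sample A3 read 10.97 for Il6, with 10.05 to 10.32 in the others.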

How the results depend on the processing

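No paired analysis was possible because the labels give the mice of both groups no shared numbers. The count of genes called with 6 against 6 mice was 1 higher and 0 lower. It was 0 higher with the 12 samples only, with quantile normalization and with genes above the median level. The last of these settings does not test Ces2e, the gene called, because its level is below the median. It was 956 higher and 1300 lower (1 of them strict) with sample weights, and 536 and 923 when E2 and B3 alone were left out of the 24. Leaving out 1 mouse at a time gave 0 to 5 higher (most without T-PNU replicate 3, A2) and 0 to 2 lower (most without T-PNU replicate 1, G1). With 6 against 4 mice, the 10 samples alone gave 51 higher and 53 lower (0 and 1 strict). Adding untreated B1 and C1 to the spread gave 536 and 923 (0 and 0 strict). Genes above the median level, a smaller set than all genes, gave 1315 higher (6 and 50 strict), and sample weights 236 strict higher. Without 1 mouse, the counts ran from 442 (without trastuzumab replicate 3, G2) to 3402 (without G1) higher and from 570 to 3065 lower, and the strict ones from 0 (without T-PNU replicate 2, H1) to 352 and from 1 to 208.

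For the lists with 6 against 4 mice, the 10 samples alone called 0 T cell, 0 B cell, 1 interferon-stimulated, 0 mitosis, 1 matrix and 14 sterol genes. With B1 and C1 in the spread these were 0, 0, 0, 5, 9 and 18, and sample weights called 14 B cell genes. Without 1 mouse they ran from 0 to 15, 0 to 14, 0 to 6, 1 to 13, 7 to 12 and 15 to 20. The lowest counts came without G2, except that of B cell genes, which came without H1. The epithelial median (0.28) was -0.33 over genes above the median level.

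Some small differences, none of them called in either reported fit, changed sign. With 6 against 6 mice Ccl5 and H2-DMa became 0.13 and 0.043 without E2 and B3 and 0.11 and 0.050 with sample weights, Pdcd1lg2 became 0.015 and Gbp2 0.015 under these in turn, and quantile normalization gave Ifng -0.018 and Il12a -0.055. With 6 against 4 mice Gbp2 was 0.038 with sample weights. Without 1 mouse and with 6 against 6, the ranges were -0.10 to 0.00037 for Acly, -0.21 to 0.077 for Ccl5, -0.0080 to 0.24 for Cdh5, -0.091 to 0.048 for Egln3, -0.11 to 0.058 for Fcgr2b, -0.17 to 0.065 for Gbp2, -0.14 to 0.0092 for H2-DMa, -0.22 to 0.15 for Ifng, -0.067 to 0.11 for Il12a and -0.082 to 0.31 for Mvk. With 6 against 4 they were -0.080 to 0.025 for Acly, -0.050 to 0.26 for Ccl5, -0.14 to 0.027 for Fcgr2b, -0.21 to 0.087 for Gbp2, -0.022 to 0.078 for H2-DMa, -0.12 to 0.50 for Ifng, -0.43 to 0.21 for Lum and -0.31 to 0.27 for Pdcd1lg2. The cause was not tested. The number of mice limits the precision, and depth is unknown.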
